A study of Mus musculus with 9 samples.

Results

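The genes described here are 34 that act in the synthesis of cholesterol and fatty acids and are known as targets or regulators of the sterol regulatory element-binding proteins (SREBPs). They were chosen by name, 23 for the sterol branch and 11 for the fatty acid branch, out of 18193 mouse genes with a probe set on the arrays. Earlier results of these data were known when the choice was made, so shares of members beside all genes are descriptions only. Of the 34, 33 had a probe set assigned to that gene alone, and all 33 lay above the low-signal level used for testing, as did 10613 of the 18193 genes. The gene without one was Acat2, whose product condenses acetyl-CoA, so that no value is given for it. For a gene with several probe sets, the one with the highest mean log2 value over the 9 arrays was used.

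The samples were NIH 3T3 cells, a mouse fibroblast line long kept in culture, grown in medium with 10% fetal calf serum. The cells carried 1 of 3 retroviral short hairpin RNAs (shRNAs), a control, one targeting Ube2m or one targeting Ube2f, and were harvested 5 days after transduction, with 3 biological replicates per group. The targets encode E2 enzymes, which carry NEDD8, a ubiquitin-like protein, to cullin ubiquitin ligases, and the series title asks how such enzymes select cullins. The growth label of all 9 samples calls the cells Ube2f-expressing, and it was not given whether an added construct is meant. The sequence, number of hairpins per target and clonality of the cultures were also not given, so that each targeted group stands for its hairpin.

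The Ube2f hairpin lowered the Ube2f signal to 5.21% of control, and Ube2m could not be checked, since 0 probe sets carried that name alone. The median signals of the arrays ran from 53.3 to 58.5 in replicates 1 and 2 and from 64 to 73.5 in replicate 3. Beta-actin gave a 3′ over 5′ ratio of 1.82 on control replicate 1 and of 1.24 to 1.35 elsewhere, and the hybridisation spikes averaged 4288 and 4120 on control replicates 1 and 2, 5460 to 6712 on the targeted arrays of those replicates, and 6078, 4018 and 4239 on replicate 3 (control, Ube2m, Ube2f). Fibroblast markers were present, with control signals of 25000 for Col1a2 and 33800 for Vim, although Lum and Fap lay under the low-signal level of 53.8. Some of them moved with the groups: of 10 tested, Thy1 fell with Ube2m shRNA (-0.70, adjusted p = 0.0163), Pdgfra rose with Ube2f shRNA (0.72, adjusted p = 0.00997), and between Ube2m and Ube2f shRNA all 10 were below 0 and 3 were called lower, Thy1 (-0.67), Pdgfra (-0.96) and Pdgfrb (-0.51). The called shares were 10% lower with Ube2m (beside 6.12% of all genes tested) and 10% higher with Ube2f (beside 2.23%). Between Ube2m and Ube2f shRNA the share was 30% lower (beside 9.38%), and 5939 of all 10613 genes were below 0. The summed signal of the 12 fibroblast markers was 133000 to 165000 in control, 132000 to 149000 with Ube2m and 147000 to 168000 with Ube2f shRNA. Of 9 adipocyte markers with a probe set, 8 lay under that level, Adipoq at 29.8 and Pparg at 5.03 in control. The other was Lpl, which averaged 3520 on the control arrays. Under the Ube2m hairpin Lpl averaged 4580, with every array above control, but did not pass (log2 fold change 0.39, SE 0.12, limma adjusted p = 0.0668). Under the Ube2f hairpin it averaged 4180 and overlapped control (0.25, adjusted p = 0.28). Of 5 endothelial markers, all lay under the low-signal level. Of 8 macrophage markers 3 lay above it, with a summed signal of 903 to 994 in control, 886 to 1120 with Ube2m and 792 to 834 with Ube2f shRNA. Of 6 epithelial markers 3 did, and their summed signal was 3230 to 5270 in control, 5700 to 6480 with Ube2m and 2680 to 4140 with Ube2f shRNA, nearly all of it from Krt14. The part of these markers, of the beta-actin ratio and of the spikes in the results below was not tested, except where a value is given.

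SREBPs are transcription factors made as membrane proteins of the endoplasmic reticulum, where SCAP escorts them and INSIG proteins hold them back while sterols are plentiful. When sterols run low, the SREBP and SCAP pair moves to the Golgi, proteases release the soluble part, and this part binds sterol regulatory elements in promoters, usually together with NF-Y and Sp1. SREBP-2, from Srebf2, acts mainly on the genes of the sterol branch, and SREBP-1, from Srebf1, mainly on those of the fatty acid branch. In fibroblasts kept in serum, lipoproteins supply cholesterol and keep the pathway partly damped.

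The promoters of 5 sterol genes are shown, the 3 with a match to the core of the sterol regulatory element and the 2 with the largest falls under Ube2f shRNA. None of the 5 passed with Ube2m shRNA against control, so that the rises described below are not represented among them. RefSeq (GRCm38.p6) gave windows for 27 of the 34 genes, and Fads1, Fdft1, Fdps, Scd1, Scd2, Sqle and Stard4 had none in the table used. Each line gives the 250 bases before the start of the gene, 5′ to 3′ on its own strand, with matches to TCACNCCA (a core of the sterol regulatory element) and to CCAAT (the NF-Y box) in capitals, on either strand, so that ATTGG is the NF-Y box read backwards. The windows are chr8:64733579-64733828 on the minus strand, chr13:119690101-119690350 on the plus strand, chr15:82147019-82147268 on the plus strand, chr8:122443423-122443672 on the minus strand and chr13:8885356-8885605 on the plus strand. Of the genes that passed the test below, Msmo1 was the one with the sterol element core, and the other 4 were chosen after their values were seen.
Msmo1: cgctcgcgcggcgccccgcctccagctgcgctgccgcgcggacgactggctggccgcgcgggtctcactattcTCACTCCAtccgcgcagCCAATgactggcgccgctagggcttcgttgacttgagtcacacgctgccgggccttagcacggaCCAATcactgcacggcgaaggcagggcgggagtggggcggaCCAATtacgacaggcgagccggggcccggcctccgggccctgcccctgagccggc
Hmgcs1: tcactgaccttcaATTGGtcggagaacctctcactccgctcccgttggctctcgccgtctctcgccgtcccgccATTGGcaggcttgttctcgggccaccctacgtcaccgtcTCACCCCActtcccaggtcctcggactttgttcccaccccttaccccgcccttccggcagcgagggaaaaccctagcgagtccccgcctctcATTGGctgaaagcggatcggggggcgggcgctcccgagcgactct
Srebf2: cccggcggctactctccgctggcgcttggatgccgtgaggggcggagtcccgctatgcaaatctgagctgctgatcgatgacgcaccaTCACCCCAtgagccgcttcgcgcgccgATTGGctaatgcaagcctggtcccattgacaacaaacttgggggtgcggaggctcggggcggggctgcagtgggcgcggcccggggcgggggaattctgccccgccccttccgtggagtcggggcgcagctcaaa
Mvd: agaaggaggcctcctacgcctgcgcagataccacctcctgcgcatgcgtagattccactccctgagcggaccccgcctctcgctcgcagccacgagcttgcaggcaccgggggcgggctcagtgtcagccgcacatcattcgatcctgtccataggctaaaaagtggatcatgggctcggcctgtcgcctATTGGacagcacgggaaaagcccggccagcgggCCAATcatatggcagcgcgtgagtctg
Idi1: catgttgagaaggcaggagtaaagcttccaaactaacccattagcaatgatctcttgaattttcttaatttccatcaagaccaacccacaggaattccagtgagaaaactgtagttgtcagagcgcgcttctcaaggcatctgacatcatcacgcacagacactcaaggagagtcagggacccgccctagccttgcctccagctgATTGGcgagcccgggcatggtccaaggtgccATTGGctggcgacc

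The core TCACNCCA was found in the 300-base windows (250 before to 50 after the start) of Msmo1, Hmgcs1 and Srebf2, which is 3 of 19 sterol branch genes (15.8%) and 0 of 8 fatty acid branch genes, beside 4.31% of the 8656 tested genes and 4.97% of all 27025 genes with a window. It began 177 bases before the start in Msmo1, 162 in Srebf2 and 137 in Hmgcs1. The NF-Y box CCAAT was found in 17 of 19 sterol branch genes (89.5%) and 5 of 8 fatty acid branch genes (62.5%), beside 43.6% of the tested and 41.1% of all genes. The Sp1 box GGGCGG was found in 18 of 19 (94.7%) and 4 of 8 (50%), beside 70.7% and 38.2%, and the E-box CANNTG in 15 of 19 (78.9%) and 5 of 8 (62.5%), beside 66.2% and 75%. A gene with several windows counted once, and both strands were searched. These are matches of letters and do not show binding, and Mvd and Idi1, with the largest falls under Ube2f shRNA, held no match to this one form of the sterol element in these windows.

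Across the arrays, the sterol branch was higher with Ube2m shRNA and lower with Ube2f shRNA than in control, and the fatty acid branch was lower with Ube2f shRNA. Taking each gene relative to the mean of the 3 control arrays on the log2(signal + 16) scale, the median over the 22 sterol branch genes was -0.07, -0.05 and 0.09 on the control arrays, 0.3, 0.31 and 0.47 with Ube2m shRNA and -0.47, -0.47 and -0.31 with Ube2f shRNA (replicates 1, 2 and 3). For the 11 fatty acid branch genes it was 0.08, -0.18 and 0.1 in control, -0.06, -0.06 and 0.12 with Ube2m shRNA and -0.59, -0.48 and -0.26 with Ube2f shRNA. By this median the 3 groups did not overlap in the sterol branch, while the control and Ube2m arrays overlapped in the fatty acid branch. By summed signal, with Scd2 the brightest gene, the fatty acid branch did not overlap either. The sum was 35500 to 43100 in control, 46100 to 48500 with Ube2m and 27300 to 34000 with Ube2f shRNA. In RNA of whole cultures, fewer cells expressing a gene and less RNA per cell cannot be told apart.

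**Figure D1:**
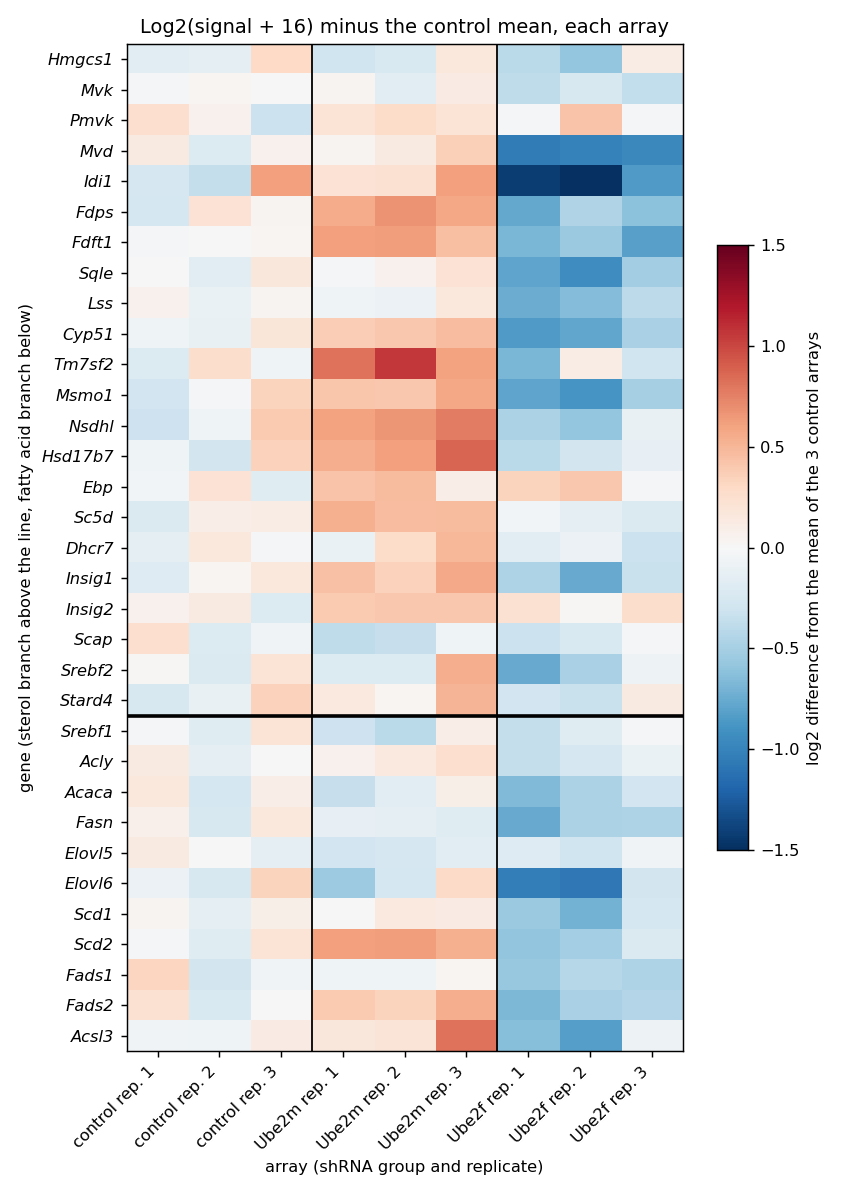
Each row is a gene and each column an array, and the colour is log2(signal + 16) minus the mean of the 3 control arrays, on a scale from -1.5 to 1.5. The columns of Ube2m shRNA are mostly red in the sterol branch and those of Ube2f shRNA mostly blue in both branches, with Idi1 and Mvd the darkest sterol rows.

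**Figure D2:**
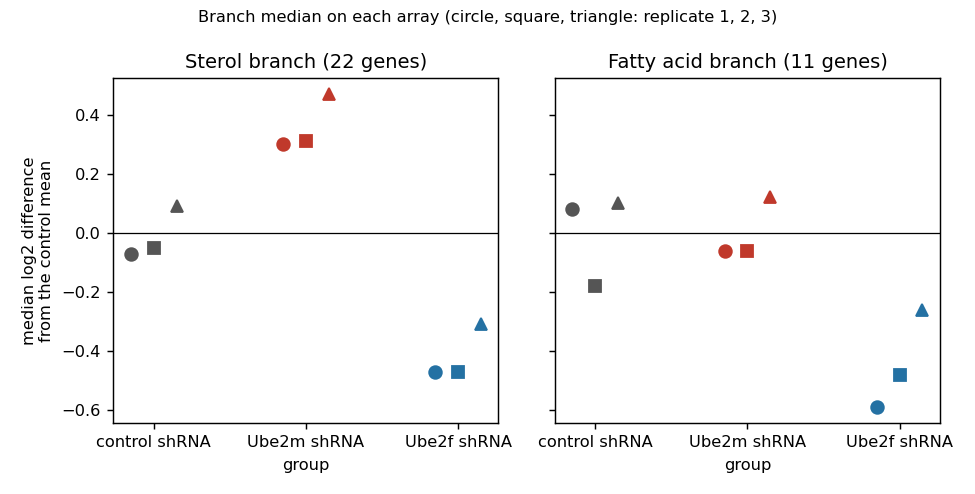
Each point is 1 array, and the y axis is the median over the branch's genes of the log2 difference from the control mean. In the sterol branch the Ube2m arrays lie at 0.3 to 0.47 and the Ube2f arrays at -0.47 to -0.31.

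Replicate 3 stood apart from replicates 1 and 2 in part of the pathway. It had the highest signal of its group in all 3 groups for 10 of 22 sterol branch genes (45.5%) and 3 of 11 fatty acid branch genes (27.3%), beside 13.8% of all genes tested. Idi1, for the isomerase that makes the second isoprene building block, read 5929 on control replicate 3 against 3248 and 3028 on the other control arrays, and 2145 against 1441 and 1211 with Ube2f shRNA. The others were Hmgcs1, Sqle, Cyp51, Msmo1, Nsdhl, Hsd17b7, Insig1, Srebf2 and Stard4, and Srebf1, Elovl6 and Acsl3 of the fatty acid branch. In replicate 3 taken alone, with no test, the sterol branch median was 0.32 for Ube2m shRNA and -0.40 for Ube2f shRNA against control, and in replicates 1 and 2 alone it was 0.33 and -0.34.

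With Ube2f shRNA against control, 9 of 22 sterol branch genes fell, 0 rose and 13 did not pass (limma, Benjamini-Hochberg adjusted p over all genes tested, threshold 0.05). This is 40.9%, where 2.96% of all genes tested were called lower and 2.23% higher. The median log2 fold change was -0.36, with a range of -1.31 to 0.24 and 19 of 22 below 0, beside a median of 0.01 over all genes. In 10 genes the Ube2f and control arrays did not overlap, beside 23.2% of all genes. Since the fold changes against control of both hairpins share the same 3 control arrays, they are given side by side below and not set against each other. With each array centred on its median, 6 sterol genes fell, and among all genes 50 were higher and 172 lower in place of 237 and 314.

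The mevalonate steps, which turn acetyl-CoA into isoprene units, held the largest falls. Idi1 had signals of 3248, 3028 and 5929 in control, 4523, 4552 and 5986 with Ube2m and 1441, 1211 and 2145 with Ube2f shRNA. All Ube2f arrays lay below all others, while control and Ube2m overlapped. Its log2 fold change was -1.31 with Ube2f shRNA (SE 0.25, adjusted p = 0.00981), or 39.3% of the control mean, and 0.36 with Ube2m shRNA (SE 0.25, adjusted p = 0.41).

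Mvd, for the decarboxylase that ends the mevalonate steps, read 769, 611 and 739 in control, 725, 777 and 905 with Ube2m and 331, 342 and 352 with Ube2f shRNA. It fell to 48.4% of control with Ube2f shRNA (log2 fold change -1.01, SE 0.13, adjusted p = 0.00111) and had 0.18 with Ube2m shRNA (SE 0.13, adjusted p = 0.444). The 3 Ube2f arrays were close together, below every other array. Fdps, for farnesyl diphosphate synthase, read 3987, 5556 and 4929 in control, 7034, 7627 and 7177 with Ube2m and 2798, 3502 and 3099 with Ube2f shRNA. The 3 groups did not overlap, and Fdps fell with Ube2f (-0.61, SE 0.13, adjusted p = 0.0165) and rose with Ube2m shRNA (0.60, SE 0.13, adjusted p = 0.0124).

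The first steps of the same pathway did not pass in any comparison. Hmgcs1, for HMG-CoA synthase, read 4949, 5027 and 6798 in control, 4489, 4712 and 6182 with Ube2m and 4149, 3682 and 5973 with Ube2f shRNA, and all 3 groups overlapped. Mvk, for mevalonate kinase, had 515 to 569 with Ube2f shRNA, below the control range of 669 to 691, or -0.33 on the log2 scale (SE 0.12, adjusted p = 0.132). Pmvk, for the next kinase, had 0.13 with Ube2f and 0.22 with Ube2m shRNA, and its groups overlapped.

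Among the 11 genes from squalene to cholesterol, 5 fell and 0 rose with Ube2f shRNA (45.5%, beside 2.96% of all genes called lower), and 6 rose and 0 fell with Ube2m shRNA (54.5%, beside 3.59% called higher). Fdft1, for squalene synthase, the first enzyme committed to sterols, read 3124, 3194 and 3269 in control, 4934, 4960 and 4356 with Ube2m and 1973, 2167 and 1804 with Ube2f shRNA. The 3 groups were apart, with narrow spread in control. Its log2 fold change was -0.69 with Ube2f (SE 0.10, adjusted p = 0.00225) and 0.57 with Ube2m shRNA (SE 0.10, adjusted p = 0.00536).

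Sqle, for squalene epoxidase, read 4426, 3954 and 5004 in control, 4353, 4617 and 5184 with Ube2m and 2557, 2317 and 3084 with Ube2f shRNA. It fell with Ube2f shRNA to 59.5% of control (-0.75, SE 0.13, adjusted p = 0.00578), and its control and Ube2m arrays overlapped (0.08, adjusted p = 0.758). Lss, for lanosterol synthase, which closes the sterol rings, read 769, 685 and 758 in control, 704, 690 and 825 with Ube2m and 431, 465 and 558 with Ube2f shRNA. It had the same pattern, with -0.60 for Ube2f (SE 0.13, adjusted p = 0.0221) and 0.00 for Ube2m shRNA (SE 0.13, adjusted p = 0.999).

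Cyp51, for the enzyme that takes the first methyl group off lanosterol, read 6466, 6303 and 7666 in control, 8794, 9020 and 9370 with Ube2m and 3749, 3935 and 4820 with Ube2f shRNA. The 3 groups did not overlap, with -0.71 for Ube2f (SE 0.12, adjusted p = 0.00418) and 0.42 for Ube2m shRNA (SE 0.12, adjusted p = 0.0423). Msmo1, for the oxidase of the next methyl groups, read 4882, 5856 and 7519 in control, 7994, 7948 and 8981 with Ube2m and 3469, 3252 and 4230 with Ube2f shRNA. It fell with Ube2f shRNA (-0.72, SE 0.15, adjusted p = 0.0162), and its higher values with Ube2m shRNA did not pass although the arrays were apart (0.47, SE 0.15, adjusted p = 0.0697).

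The next 4 genes rose with Ube2m shRNA, and their values with Ube2f shRNA did not pass. Nsdhl, a dehydrogenase of the demethylation complex, read 1275, 1510 and 2082 in control, 2410, 2521 and 2730 with Ube2m and 1144, 1056 and 1469 with Ube2f shRNA, a rise of 0.68 with Ube2m shRNA (SE 0.17, adjusted p = 0.0266). Hsd17b7, the ketoreductase of that complex, read 901, 784 and 1202, then 1394, 1453 and 1740, then 715, 782 and 872 in the same order of groups, a rise of 0.68 (SE 0.16, adjusted p = 0.0191). In both, the Ube2m arrays lay above all others, and control and Ube2f overlapped.

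Sc5d, for a desaturase near the end of the pathway, read 1129, 1414 and 1426 in control, 1913, 1810 and 1827 with Ube2m and 1283, 1193 and 1129 with Ube2f shRNA. It rose with Ube2m shRNA (0.49, SE 0.12, adjusted p = 0.0211). Tm7sf2, for a sterol reductase, read 111, 160 and 125 in control, 241, 291 and 206 with Ube2m and 74.6, 142 and 103 with Ube2f shRNA, and rose with Ube2m shRNA (0.82, SE 0.24, adjusted p = 0.0475). The log2 difference from control with Ube2f shRNA did not pass for these 4 genes, at -0.39 for Nsdhl, -0.26 for Hsd17b7, -0.13 for Sc5d and -0.30 for Tm7sf2. Ebp, for a sterol isomerase, and Dhcr7, for the reductase of the last step, passed in no comparison, with 0.34 and 0.23 for Ube2m and 0.24 and -0.19 for Ube2f shRNA.

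**Figure D3:**
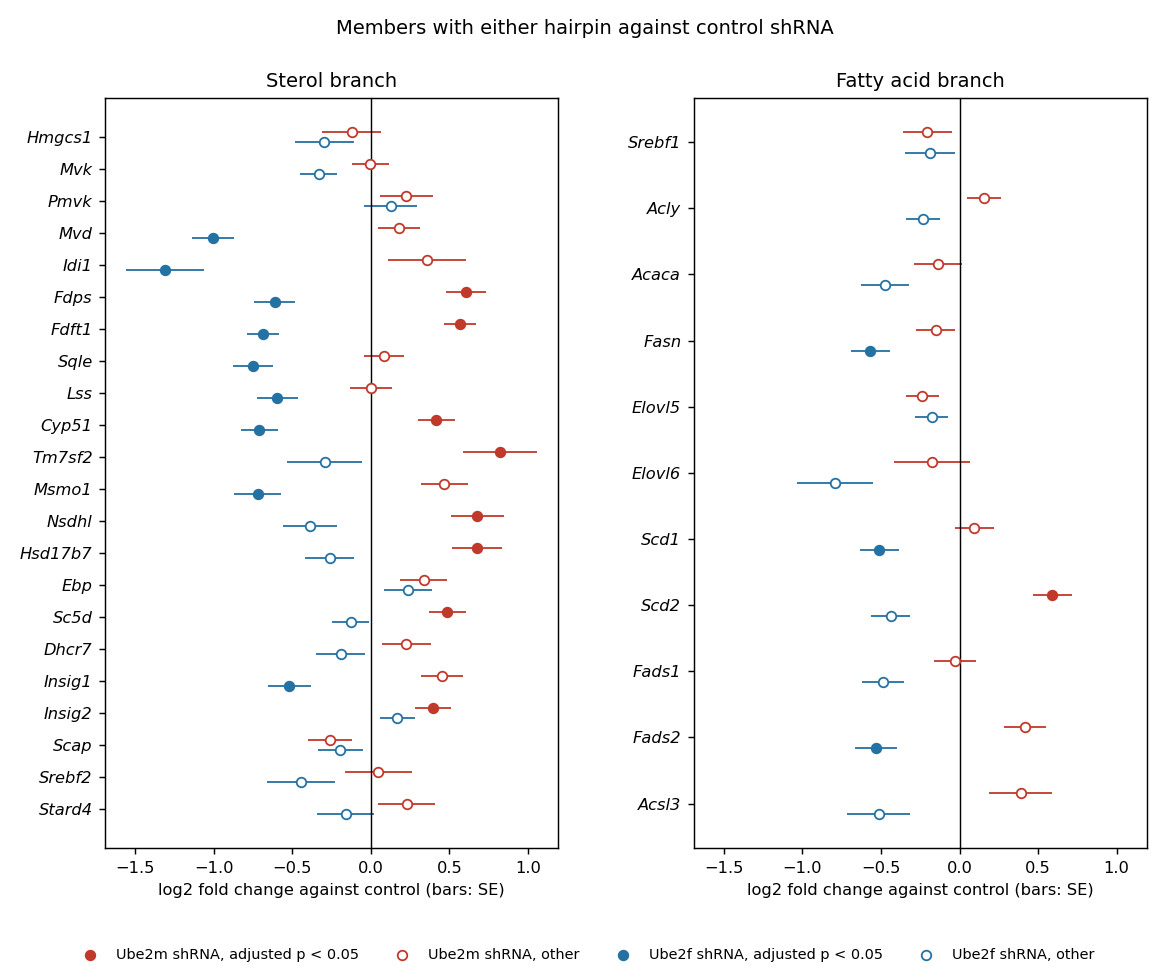
Points are log2 fold changes against control for Ube2m shRNA (red) and Ube2f shRNA (blue), with bars for the SE, and filled points passed the adjusted threshold of 0.05. In the sterol branch the filled blue points lie at -1.31 to -0.52 and the filled red points at 0.40 to 0.82.

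Of the 5 regulators and transport genes of the sterol branch, 1 fell with Ube2f and 1 rose with Ube2m shRNA, beside 2.96% of all genes called lower and 3.59% called higher. Insig1, which retains SREBP in the endoplasmic reticulum and is itself a target of SREBP, read 1138, 1334 and 1460 in control, 1775, 1667 and 1940 with Ube2m and 942, 762 and 1031 with Ube2f shRNA. The 3 groups did not overlap, and Insig1 fell with Ube2f shRNA (-0.52, SE 0.14, adjusted p = 0.0467), while 0.45 with Ube2m shRNA did not pass (SE 0.14, adjusted p = 0.056). Its relative Insig2 rose with Ube2m shRNA, from 1716, 1783 and 1419 to 2144, 2159 and 2153 (0.40, SE 0.11, adjusted p = 0.0472), and with Ube2f shRNA it read 1912, 1657 and 1956, overlapping control (0.17, adjusted p = 0.447).

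Srebf2 read 1015, 856 and 1146 in control, 869, 869 and 1457 with Ube2m and 583, 706 and 941 with Ube2f shRNA. Its groups overlapped, at -0.45 for Ube2f (SE 0.21, adjusted p = 0.268) and 0.05 for Ube2m shRNA (SE 0.21, adjusted p = 0.926). Scap, the escort of SREBP, had 1787, 1304 and 1444 in control, 1148, 1180 and 1432 with Ube2m and 1196, 1275 and 1466 with Ube2f shRNA and passed in no comparison, like Stard4, for a carrier of cholesterol inside the cell (-0.16 with Ube2f and 0.23 with Ube2m shRNA). The values are of RNA, and the cleavage or amount of SREBP protein was not measured.

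**Figure D4:**
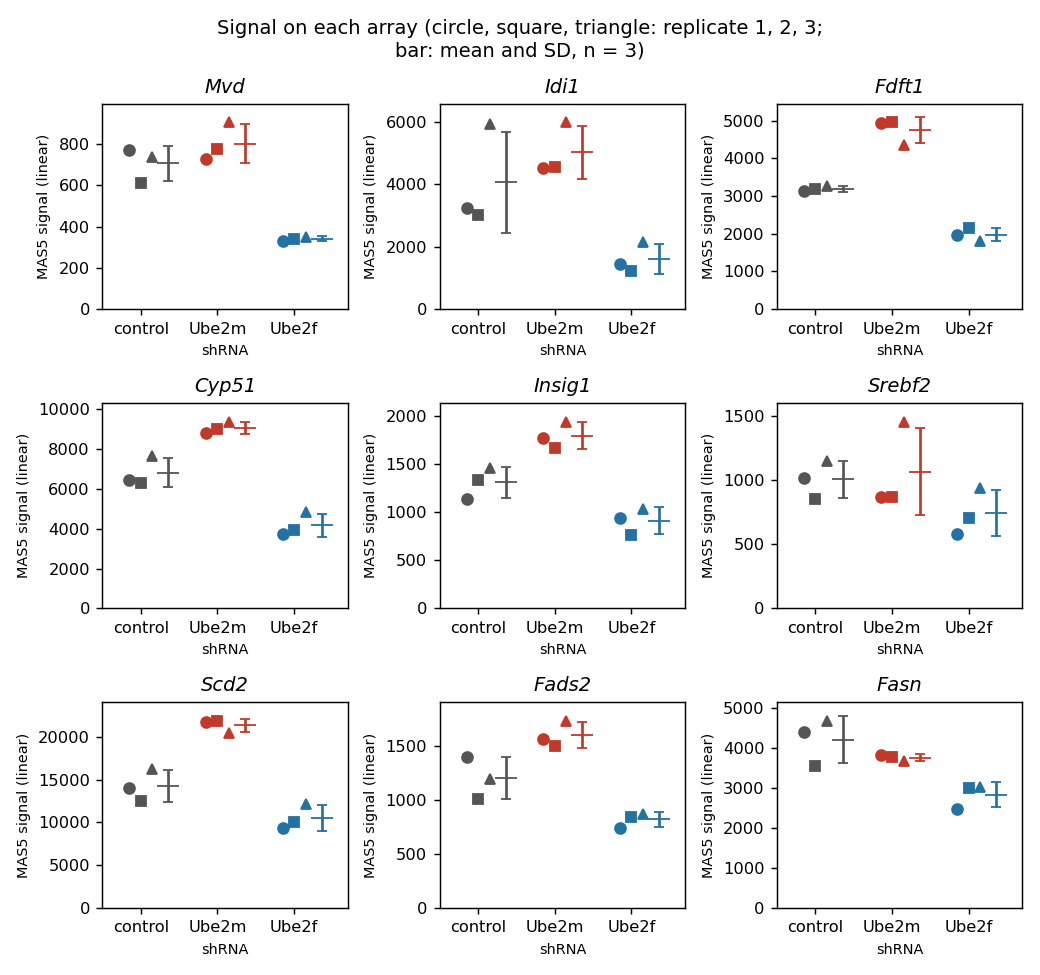
Each panel plots the linear signal of 1 gene on the 9 arrays from a baseline of 0, with the mean and SD of 3 arrays at the right of each group. Mvd, Idi1, Fdft1, Cyp51, Insig1, Scd2, Fads2 and Fasn have every Ube2f array below every control array, whereas Srebf2 overlaps.

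With Ube2m shRNA against control, 8 of 22 sterol branch genes rose and 0 fell (36.4%), where 3.59% of all genes tested were called higher and 6.12% lower. Those 8 were Fdps, Fdft1, Cyp51, Tm7sf2, Nsdhl, Hsd17b7, Sc5d and Insig2, with rises of 1.32-fold to 1.77-fold. The median over the branch was 0.35, with 19 of 22 above 0, beside -0.04 over all genes, and in 10 genes the arrays did not overlap, beside 29.7% of all genes. The count was 1 without control replicate 1 or Ube2m replicate 2, and 3 without control replicate 2, Ube2m replicate 1 or Ube2m replicate 3. It was 1 with each array centred on its median, when 124 of all genes were higher and 401 lower in place of 381 and 650, 2 with that ratio of beta-actin as covariate, 3 with probe sets averaged and 5 with no filter on low signals, while the median stayed at 0.26 to 0.40 in all of these.

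In the fatty acid branch all 11 members had log2 fold changes below 0 with Ube2f shRNA, but few passed. Of 11 genes 3 fell and 0 rose (27.3%, beside the 2.96% of all genes called lower). The median was -0.49, with a range of -0.79 to -0.18, beside a median of 0.01 over all genes. In 8 genes the arrays did not overlap, beside 23.2% of all genes. The count of calls was 0 with the beta-actin covariate, 1 with arrays centred, with probe sets averaged or with only the 2 groups compared, and 7 in replicates 1 and 2 alone, while the median stayed between -0.58 and -0.26. Over all genes 222 to 1121 passed under such settings, in place of 551. Fasn, for fatty acid synthase, read 4414, 3546 and 4690 in control, 3845, 3771 and 3688 with Ube2m and 2469, 2997 and 3034 with Ube2f shRNA, a fall of 0.57 on the log2 scale with Ube2f shRNA (SE 0.12, adjusted p = 0.0194). The enzymes that supply it did not pass against control. Acly, for ATP citrate lyase, read 5798, 4827 and 5339 in control, 5572, 5878 and 6293 with Ube2m and 4144, 4473 and 4948 with Ube2f shRNA. It had -0.23 with Ube2f shRNA (adjusted p = 0.245), and Acaca, for acetyl-CoA carboxylase, had -0.48 (adjusted p = 0.0968).

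The desaturases, which put double bonds into fatty acids, held the other calls. Scd1, a stearoyl-CoA desaturase, read 3693, 3269 and 3807 in control, 3602, 3976 and 3906 with Ube2m and 2432, 2179 and 2986 with Ube2f shRNA, or -0.51 on the log2 scale with Ube2f shRNA (SE 0.12, adjusted p = 0.0315). Fads2, which starts the making of polyunsaturated fatty acids, read 1399, 1011 and 1199 in control, 1571, 1499 and 1737 with Ube2m and 743, 846 and 875 with Ube2f shRNA, with -0.53 (SE 0.13, adjusted p = 0.0368). In both genes every Ube2f array lay below every other array.

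Scd2, a second stearoyl-CoA desaturase, read 13998, 12534 and 16256 in control, 21747, 21889 and 20472 with Ube2m and 9385, 9988 and 12198 with Ube2f shRNA. Its 3 groups were apart, and it was the 1 fatty acid gene that rose with Ube2m shRNA, by 1.51-fold (0.59, SE 0.12, adjusted p = 0.0113), while -0.44 with Ube2f shRNA did not pass (SE 0.12, adjusted p = 0.0617). Scd1 and Scd2 are close relatives, and cross-matching of their probes was not checked. With Ube2m shRNA 1 of 11 fatty acid genes rose and 0 fell (9.09%, beside 3.59% of all genes called higher). In 4 genes the Ube2m and control arrays did not overlap, 3 higher and 1 lower, beside 29.7% of all genes. Fads2 was 1 of the 3 higher, at 0.42 (SE 0.13, limma adjusted p = 0.067). The branch median with Ube2m shRNA was -0.03, with 5 genes above and 6 below 0, and the difference between the branches was not tested.

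Fads1, the partner desaturase of Fads2, read 3340, 2197 and 2583 in control, 2566, 2564 and 2719 with Ube2m and 1791, 1971 and 1932 with Ube2f shRNA (Ube2f against control -0.49, SE 0.14, adjusted p = 0.0584). Acsl3, which activates fatty acids for use in lipids, read 1046, 1031 and 1175 in control, 1222, 1236 and 1905 with Ube2m and 689, 602 and 1026 with Ube2f shRNA, and its 3 groups were apart without passing against control (-0.51, adjusted p = 0.171, and 0.39, adjusted p = 0.258). Elovl6, which lengthens saturated fatty acids, had -0.79 with Ube2f shRNA (SE 0.24, adjusted p = 0.0837) on arrays of 820, 803 and 1413 against 1604, 1442 and 2141. Elovl5, the elongase of polyunsaturated fatty acids, had -0.18 with Ube2f and -0.24 with Ube2m shRNA, neither past the threshold, and Srebf1 had -0.19 and -0.20 with overlapping groups.

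Other probe sets of a member, where above the low-signal level, did not always give the same sign. With Ube2f shRNA the second probe set of Acaca had 0.20 and that of Fads1 0.04, against -0.48 and -0.49 for the ones used, and 1 other of Scd2 had 0.58 against -0.44. In the sterol branch 1 other of Hsd17b7 had 0.55 against -0.26, and 1 other of Stard4 had 0.13 against -0.16. Among the members called with Ube2f shRNA this held for Cyp51, where 1 of the other probe sets had 0.05 against -0.71, while those of Mvd (-0.97), Idi1 (-0.96), Fdft1 (-0.89) and Lss (-1.47) were also below 0. Those of Fads2 (-0.27 to -0.13 against -0.53) and Scd1 (-0.09 against -0.51) were below 0 by less than the ones used. With Ube2m shRNA the other probe sets of each called member above that level were above 0, with Sc5d the lowest at 0.03 and Scd2 the highest at 2.19. Among members not called with Ube2m shRNA, other probe sets gave the opposite sign in both branches. They had 0.62 against -0.14 for Acaca, 0.13 to 0.27 against -0.18 for Elovl6 and 0.28 against -0.03 for Fads1. Mvd had -0.06 against 0.18, and 1 other probe set of Hmgcs1 had 0.37 against -0.12.

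Most of the calls against control were lost when 1 or another array was left out, while their fold changes kept their sign. Across all the other settings run, 3 of the 12 calls with Ube2f and 0 of the 9 with Ube2m shRNA passed throughout. With Ube2f shRNA, those of Mvd, Fdft1, Sqle and Cyp51 passed with any 1 of the 9 arrays left out, 4 of the 12 calls in both branches. That of Idi1 did not pass without Ube2f replicate 1 (-1.26, adjusted p = 0.0514), that of Fdps without control replicate 2 or Ube2f replicate 1 (-0.53 to -0.50, adjusted p = 0.0576 to 0.0975), and that of Msmo1 without Ube2f replicate 1 or 2 (-0.69 to -0.64, adjusted p = 0.0655 to 0.0785). Lss did not pass without control replicate 1 or 3 or Ube2f replicate 1 or 2 (-0.57 to -0.52, adjusted p = 0.0539 to 0.119), and Fasn without control replicate 1 or 3 or Ube2f replicate 1 (-0.53 to -0.47, adjusted p = 0.0571 to 0.112). Insig1 did not pass without control replicate 2 or 3 or replicate 1 or 2 of either targeted group (-0.55 to -0.40, adjusted p = 0.0739 to 0.154). Scd1 (-0.51 to -0.41, adjusted p = 0.0502 to 0.137) and Fads2 (-0.56 to -0.42, adjusted p = 0.0598 to 0.178) did not pass without control replicate 1 or 3 or replicate 1 or 2 of either targeted group. The sterol branch count with Ube2f shRNA was 4 without Ube2f replicate 1 and 6 without Ube2f replicate 2, and the fatty acid count was 0 without control replicate 1, control replicate 3 or Ube2f replicate 1, 1 without Ube2f replicate 2, Ube2m replicate 1 or Ube2m replicate 2, 5 without control replicate 2 and 6 without Ube2f replicate 3. Over all genes, 195 to 583 passed with 1 array left out, in place of 551.

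With Ube2m shRNA, the call of Fdft1 passed with any 1 array left out, and the other 8 in both branches did not. Without control replicate 1 or Ube2m replicate 2, Fdps (0.47 to 0.57, adjusted p = 0.0526 to 0.063) and Scd2 (0.57 to 0.58, adjusted p = 0.0528 to 0.0562) did not pass, and the fatty acid count was 0 without Ube2m replicate 2 and 1 without control replicate 1. Sc5d did not pass without control replicate 1 or Ube2m replicate 1 or 2 (0.38 to 0.50, adjusted p = 0.0702 to 0.0912), and Hsd17b7 without control replicate 1 or 2 or Ube2m replicate 2 or 3 (0.54 to 0.71, adjusted p = 0.0577 to 0.0744). Nsdhl did not pass without control replicate 1 or 2 or any Ube2m replicate (0.52 to 0.72, adjusted p = 0.0656 to 0.112). Cyp51 (0.36 to 0.44, adjusted p = 0.0559 to 0.142) did not pass without any of the same 5 arrays or Ube2f replicate 1, Tm7sf2 (0.70 to 0.95, adjusted p = 0.0527 to 0.185) without any 1 control or Ube2m array, and Insig2 (0.30 to 0.46, adjusted p = 0.0526 to 0.143) without any 1 of these 6 or Ube2f replicate 1.

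The fold changes between Ube2m and Ube2f shRNA take no control array, while their SE and p came from the fit of all 9 arrays. Of 22 sterol branch genes 13 were higher with Ube2m shRNA and 0 lower (59.1%), and of 11 fatty acid branch genes 7 were higher and 0 lower (63.6%), where 6.37% of all genes tested were called higher and 9.38% lower. The medians were 0.73 and 0.46, beside -0.04 over all genes. No overlap between the arrays of both hairpins was seen in 15 of 22 and 7 of 11 genes, beside 34.4% of all genes.

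Idi1 differed most, 3.18-fold (log2 1.67, SE 0.25, adjusted p = 0.00075). Fdft1 followed with 2.39-fold (1.26, SE 0.10, adjusted p = 7.63e-06), Fdps with 2.32-fold (1.22, SE 0.13, adjusted p = 5.84e-05), Msmo1 with 2.28-fold (1.19, SE 0.15, adjusted p = 0.000249) and Mvd with 2.28-fold (1.19, SE 0.13, adjusted p = 9.09e-05). Neighbours in this order after Idi1 differed by less than their SE. Cyp51 (1.13), Tm7sf2 (1.12), Nsdhl (1.06), Insig1 (0.97), Hsd17b7 (0.94), Sqle (0.83), Sc5d (0.62) and Lss (0.60) completed the sterol calls, with adjusted p between 5.19e-05 and 0.00902. All 13 passed with any 1 array left out.

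In the fatty acid branch Scd2 differed by 2.04-fold (1.03, SE 0.12, adjusted p = 0.000165), Fads2 by 1.93-fold (0.95, SE 0.13, adjusted p = 0.000468), Acsl3 by 1.87-fold (0.90, SE 0.20, adjusted p = 0.00912) and Scd1 by 1.52-fold (0.60, SE 0.12, adjusted p = 0.00544). These 4 passed with any 1 array left out. Fads1 (0.46, adjusted p = 0.036), Fasn (0.42, adjusted p = 0.0373) and Acly (0.39, adjusted p = 0.0272) did not pass without any 1 Ube2m array or Ube2f replicate 1 or 2, and Fads1 also not without Ube2f replicate 3, at log2 values of 0.42 to 0.49, 0.32 to 0.46 and 0.33 to 0.43 and adjusted p of 0.0556 to 0.128, 0.0576 to 0.167 and 0.0543 to 0.128. The fatty acid count was then 4 without any 1 Ube2m array or Ube2f replicate 1 or 2, and also 4 when arrays were centred.

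The arrays of these 2 groups with the same replicate number correlated in their deviations, at 0.2, 0.21 and 0.56 for replicates 1, 2 and 3. Only replicate 3 stood apart, since Ube2m 1 with Ube2f 2 had 0.28 and Ube2m 2 with Ube2f 1 had 0.19. With the replicate number as a block 16 sterol and 8 fatty acid genes passed. Among all 10613 genes tested, 2493 passed with the block in place of 1672. The members gained were Srebf2 (0.49, adjusted p = 0.149 without and 0.013 with the block), Stard4 (0.39, 0.178 and 0.00712), Dhcr7 (0.42, 0.0927 and 0.0432) and Elovl6 (0.62, 0.111 and 0.00137). The genes with the smallest differences were Srebf1 (-0.01, SE 0.16), Elovl5 (-0.06, SE 0.11) and Scap (-0.07, SE 0.14). Pmvk, Ebp, Hmgcs1, Insig2, Mvk and Acaca did not pass either, at 0.10, 0.10, 0.17, 0.23, 0.33 and 0.34.

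**Figure D5:**
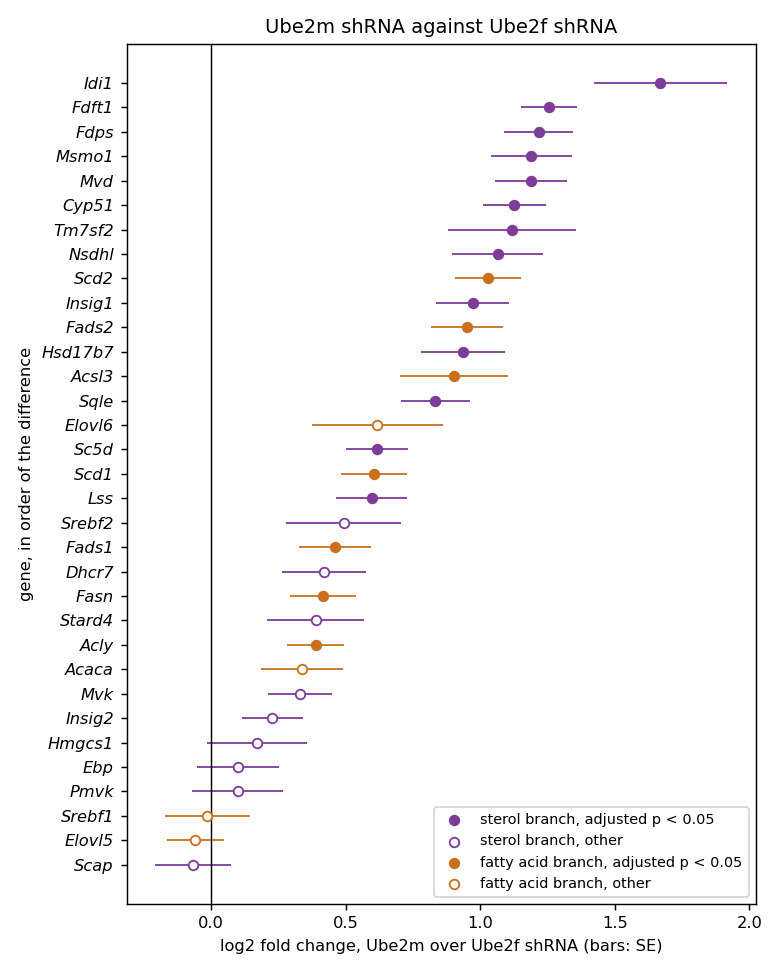
Points are log2 fold changes of Ube2m over Ube2f shRNA for the 33 genes in order of size, with bars for the SE, sterol branch in purple and fatty acid branch in orange, and filled points passed the adjusted threshold of 0.05. Idi1 stands at the top at 1.67 and Scap at the bottom at -0.07.

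Other genes around the pathway were taken from 4 lists. Of 14 tested genes of SREBP processing and turnover, 0 rose and 4 fell with Ube2m shRNA, 0 rose and 1 fell with Ube2f shRNA, and 1 was higher and 3 lower between Ube2m and Ube2f shRNA. The shares were 28.6% lower with Ube2m (beside 6.12% of all genes), 7.14% lower with Ube2f (beside 2.96%), and 7.14% higher and 21.4% lower between them (beside 6.37% and 9.38%). Those that fell with Ube2m shRNA included both proteases that release SREBP in the Golgi. Mbtps1, the site-1 protease, read 2922, 2570 and 2149 in control, 1690, 1905 and 1860 with Ube2m and 2918, 3210 and 2884 with Ube2f shRNA (-0.47 with Ube2m, SE 0.12, adjusted p = 0.0282). Mbtps2, the site-2 protease, read 1913, 1661 and 1869, then 1045, 1148 and 1209, then 1765, 1490 and 1912 (-0.67 with Ube2m, SE 0.12, adjusted p = 0.00504). In both the Ube2m arrays lay below all others, opposite in direction to the sterol enzymes in the same group.

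Erlin1, a membrane protein of the endoplasmic reticulum that binds the SREBP complex, read 2792, 2560 and 3000 in control, 2159, 2153 and 2102 with Ube2m and 801, 726 and 896 with Ube2f shRNA. It was the 1 gene of that list lower with Ube2f shRNA (-1.77, SE 0.11, adjusted p = 2.86e-06), and it also fell with Ube2m shRNA (-0.38, SE 0.11, adjusted p = 0.0494), as did Faf2 (-0.49, adjusted p = 0.0445). Its relative Erlin2 had 0.24 with Ube2f shRNA (adjusted p = 0.184).

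Of 12 tested genes of sterol transport, storage and the liver X receptor, 1 rose and 1 fell with Ube2m shRNA and 0 passed with Ube2f shRNA by limma (unadjusted p under 0.05 in 0 higher and 2 lower). Scarb1, a receptor for high-density lipoprotein, rose with Ube2m shRNA (0.61, SE 0.17, adjusted p = 0.0416), and Lrp1, an endocytic receptor, fell (-0.92, SE 0.19, adjusted p = 0.00969). Of 19 other fatty acid and acyl-lipid genes, 1 rose with Ube2m shRNA, Me1, for the malic enzyme that makes NADPH (0.41, SE 0.11, adjusted p = 0.0383), and 0 passed with Ube2f shRNA by limma (unadjusted p under 0.05 in 1 higher and 4 lower). Of 10 genes of isoprenoid side branches, 1 fell with Ube2m shRNA, Coq2 of ubiquinone synthesis (-0.48, SE 0.11, adjusted p = 0.0214), and 0 passed with Ube2f shRNA by limma (unadjusted p under 0.05 in 2 higher and 1 lower). With Ube2m shRNA the called shares were 8.33% higher and 8.33% lower for the transport list, 5.26% higher for the fatty acid list and 10% lower for the isoprenoid list, each 1 gene, beside 3.59% higher and 6.12% lower of all genes. The medians of these 3 lists lay between -0.09 and 0.09 in both comparisons with control. Between Ube2m and Ube2f shRNA, 2 transport genes were higher and 0 lower (16.7% higher), 4 fatty acid genes higher and 1 lower (21.1% and 5.26%) and 1 isoprenoid gene higher and 2 lower (10% and 20%), beside 6.37% and 9.38% of all genes. They were Tmem97 (0.67) and Scarb1 (0.75), then Me1 (0.69), Slc25a1 (0.49), Acsl4 (0.58), Hsd17b12 (0.47) and Gpam (-0.38), then Pdss2 (0.68), Coq2 (-0.73) and Fnta (-0.44), with adjusted p between 0.000999 and 0.041.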

How the data were processed

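The deposited values are intensity, the linear MAS5 signal of each probe set on 1-colour Affymetrix arrays hybridised with cRNA from 6 ug of total RNA, per the labels and the submitters' processing notes. The MAS5 version and settings are not stated there, and detection calls were not used. The mean after trimming 2% at each end was 500 on every array. No depth is counted for arrays, and their number limits the precision.

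Probe sets of control type (64), with several genes (932) or without a gene name (9160) were left out, and log2(signal + 16) of the brightest probe set per gene was kept. Genes with a mean log2 value of at least 6.12, the median of probe sets other than controls, were tested with limma 3.58.1 in R 4.3.3 (lmFit on all 9 arrays, 1 mean per group, eBayes with trend), two-sided, with Benjamini-Hochberg adjustment over the 10613 genes in each comparison. Tested on simulated data, the fit recovered every change of the larger size drawn and most, not all, of the smaller. Both sizes were larger than most changes called here against control, so recovery of those was not measured. The simulated noise was independent between arrays, without a shift shared by the replicate 3 arrays. With 3 arrays a group an exact permutation test cannot give a p under 0.1 and was not used. Log2 fold changes understate the change of low signals.

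The members and lists were chosen with earlier results of these data known. Every member is accounted for, and those past the threshold in any comparison are given on every array. The labels call the replicates biological and do not say whether cultures were transduced separately. Across genes, deviations of same-numbered arrays from their group means correlated at 0.2, 0.21 and 0.56 (replicates 1, 2 and 3) between Ube2m and Ube2f shRNA, which was taken as pairing since each exceeded 0.1, although differently numbered arrays reached 0.28 (Ube2m 1 with Ube2f 2) and 0.19 (Ube2m 2 with Ube2f 1), at 0, 0.19 and 0.32 between control and Ube2m, and at 0.01, 0.16 and 0.35 between control and Ube2f shRNA. Alternatives were another constant, filter, probe set choice, scaling, block, covariate and set of arrays, and replicate 3 alone was added after seeing the data. Promoter windows came from RefSeq (GRCm38.p6).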

Additional observations from a re-analysis of the deposited data

How the results depend on the processing

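Counts of members called moved by over 1.5 times under some alternatives, and 0 calls changed direction under any alternative run. For the sterol branch with Ube2m shRNA, 8 calls became 5 with no filter, 3 with probe sets averaged, 1 with arrays centred on the median and 2 with the beta-actin covariate, and with Ube2f shRNA 9 became 3 with probe sets averaged. For the fatty acid branch with Ube2m shRNA, 1 call became 3 with probe sets averaged, 0 with centring, 3 with the replicate block, 0 with the covariate and 2 in replicates 1 and 2 alone (1 higher and 1 lower). With Ube2f shRNA, 3 became 1 with probe sets averaged, 1 with centring, 8 with the replicate block, 0 with the covariate, 1 with only the 2 groups compared and 7 in replicates 1 and 2 alone, and between Ube2m and Ube2f shRNA 7 became 4 with centring. With 1 array left out the sterol counts ran from 1 to 10, 4 to 9 and 13 to 14, and the fatty acid counts from 0 to 1, 0 to 6 and 4 to 7, for Ube2m against control, Ube2f against control and Ube2m against Ube2f shRNA. Those for all genes ran from 388 to 1177, 195 to 583 and 1017 to 1813 in the same order, in place of 1031, 551 and 1672. Averaging took in probe sets under the low-signal level, such as 2 of 4 for Fdft1.

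Control and targeted arrays of the same number correlated at 0.32 and 0.35 in replicate 3, but at 0 and 0.01 in replicate 1. The main fit had no block, so a shift shared by the replicate 3 arrays stayed in its spread. With the replicate block the sterol branch had 12 calls with each hairpin, and all genes 1866 in place of 1031 with Ube2m and 1225 in place of 551 with Ube2f shRNA. Members called against control only with the block were Idi1, Msmo1, Ebp, Insig1, Fads2 and Acsl3 with Ube2m shRNA. With Ube2f shRNA they were Hmgcs1, Nsdhl, Srebf2, Acaca, Elovl6, Scd2, Fads1 and Acsl3. Between Ube2m and Ube2f shRNA the block gave 2493 in place of 1672, and it ended none of the 41 calls of members. Over the other settings, arrays left out included, the counts for all genes were 388 to 1747, 195 to 1121 and 868 to 2032, and centring gave 356 higher and 512 lower between Ube2m and Ube2f shRNA. With a constant of 64 each of these 6 branch counts was the same number. The sterol median was 0.26 to 0.40, -0.51 to -0.30 and 0.68 to 0.82 over all settings, and the fatty acid median was -0.17 to 0.13, -0.58 to -0.26 and 0.39 to 0.53.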
